A study of Saccharomyces cerevisiae with 8 samples.

Results

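Budding yeast starved of heme and budding yeast starved of oxygen were set against each other directly. The heme-starved cultures were of a hem1 deletion strain, which cannot make 5-aminolevulinic acid (ALA), the first precursor of heme. They were grown for 6 h in rich glucose medium (YPD) with 250 µM ALA, washed, and then kept for 16 h in YPD without ALA (2 arrays, "hem1 without ALA"). The oxygen-starved cultures were of a wild type strain, written BY45742 in the labels, grown for 6 h in YPD and then for 12 h in an anaerobic gas-generating chamber (2 arrays, "hypoxia"). Their control cultures were hem1 kept for 16 h with 250 µM ALA (2 arrays) and the wild type kept for 12 h in air, called normoxia (2 arrays). Of the 8 arrays of the series, 4 hold the end states, and each measured total RNA on an Affymetrix YG_S98 expression array. The parent of the hem1 strain is not named, and strain, culture time and treatment all differ between the end states, so their parts in any difference below cannot be told apart. The hem1 cultures were inoculated in duplicate, while nothing in the labels says whether the wild type samples were separate cultures. What the p-values measure is therefore the spread between these samples, and that spread may be technical.

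Heme and oxygen are tied in yeast because the late steps of heme synthesis consume oxygen and because heme is the signal through which the regulator Hap1 senses it. With heme, Hap1 activates respiratory, sterol and defence genes and the repressor gene ROX1, and Rox1 keeps hypoxic genes shut. Without oxygen, cells can make neither heme nor ergosterol nor unsaturated fatty acids, take up sterols instead, and replace aerobic cell wall proteins with the DAN/TIR mannoproteins and seripauperins. Heme is also a cofactor in its own right, carried by cytochromes, catalases and the P450 enzymes of sterol synthesis.

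The arrays held 9275 probe sets other than controls, of which 7081 were bright enough to be tested; they stand for 5283 of the 5656 genes on the array. A probe set was tested if its signal exceeded its array's 30th percentile on at least 2 of the 8 arrays. A group with both arrays at or below that percentile counts as dim, and folds over such a group are written "at least". Median signals were 157.5 and 158.8 in hem1 without ALA and 140.3 and 146.0 in hypoxia, against 98.1 to 122.3 in the control cultures. All values below are MAS5 signals, with n = 2 arrays per group. Two-sided p-values are from limma, adjusted over the 7081 probe sets, and "called" means an adjusted p under 0.05. One ribosomal control stood apart on single arrays of both end states: an 18S RNA probe set read 3507 and 114.9 in hem1 without ALA and 355 and 10736 in hypoxia, against 122 to 259 in the control cultures. Its part in the results was not tested, but counts are also given without the arrays that read 3507 and 10736. The ratio of the 3′ to the 5′ ACT1 probe set, a measure of RNA integrity, was 1.81 and 1.77 in hem1 without ALA and 2.11 and 2.18 in hypoxia, against 1.40 to 1.86 in the control cultures, and its part in the results was not tested either.

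The labels were checked against strain markers. The HEM1 probe set did not single out the arrays labelled hem1. Its signal was 849 and 696 in hem1 without ALA, against 1413 and 1613 in hypoxia, a 1.96-fold lower level (adjusted p = 0.0123) that was no longer called without hem1 array 2, without hypoxia array 1 or without hypoxia array 2 (adjusted p up to 0.0962 over the alternatives run). Its position against the deleted stretch could not be established here, so it is no check of the deletion. LEU2, a leucine synthesis gene used as a marker in strain construction, separated the strains: it read 3662 and 3486 in hem1 without ALA, against a dim 6.93 and 17.4 in hypoxia, at least 85.2-fold higher (adjusted p = 7.2e-05). Its control cultures were split the same way, at 1684 and 2025 in hem1 with ALA, against 13.7 and 36.4 in normoxia. HIS3 differed in the other direction, at 468 and 574 in hem1 without ALA, against 774 and 1086 in hypoxia (adjusted p = 0.0374). That call was lost without any 1 of the end-state arrays. Its control cultures read 526 and 578 in hem1 with ALA, against 1037 and 1315 in normoxia (adjusted p = 0.0104). URA3 and LYS2 were dim on every array, and MET17 is given below with the sulfur genes. The summed signal of the 4 genes specific to mating type alpha was 9955 and 11325 in hem1 without ALA and 7165 and 6770.3 in hypoxia. The summed signal of the 4 genes specific to mating type a was 614 and 686 in hem1 without ALA and 227 and 283 in hypoxia, and the alpha-factor receptor gene STE2 was dim on every array.

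The end states resembled each other more than either resembled a control culture. Across the tested probe sets, the correlation of log2 signals was 0.933 to 0.946 between arrays of the different end states, against 0.976 within hem1 without ALA and 0.985 within hypoxia. Between an end-state array and a control array it was 0.796 to 0.857, and between arrays of the different control cultures 0.934 to 0.941. These values are descriptions, and the points share probes of unlike brightness. The end states lay within 2-fold of each other for 4884 of 5283 genes (92.4%), while the control cultures of the same strains lay within 2-fold for 4664 (88.3%). The median size of the log2 difference was 0.31 between the end states and 0.38 between the control cultures. However, the 30th percentile of signals was 41.0 to 48.7 on the end-state arrays and 26.6 to 37.1 on the control arrays. Its part in this contrast was not tested.

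Against this common background, 722 genes were called as different between the end states, or 13.7% of those tested. Of these, 485 (9.18%) were higher in hem1 without ALA and 237 (4.49%) were lower, and 208 and 134 of them differed at least 2-fold. By probe set, 1063 of 7081 (15% of those tested) were called, 599 higher and 464 lower, and 2121 had an unadjusted p under 0.05. The call is stricter than a lack of overlap, since the arrays of the end states did not overlap for 3223 of 5283 genes (61.0%). The median over all tested probe sets was 0.12 higher in hem1 without ALA on the log2 scale, a shift that centring on the median removes, so small differences depend on the scaling. Of the called probe sets 56.4% were higher with the deposited scaling and 39.6% with median centring. Without the arrays that read high for 18S, which leaves 1 array per end state and takes the spread from the control cultures, 265 probe sets were called.

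**Figure D1:**
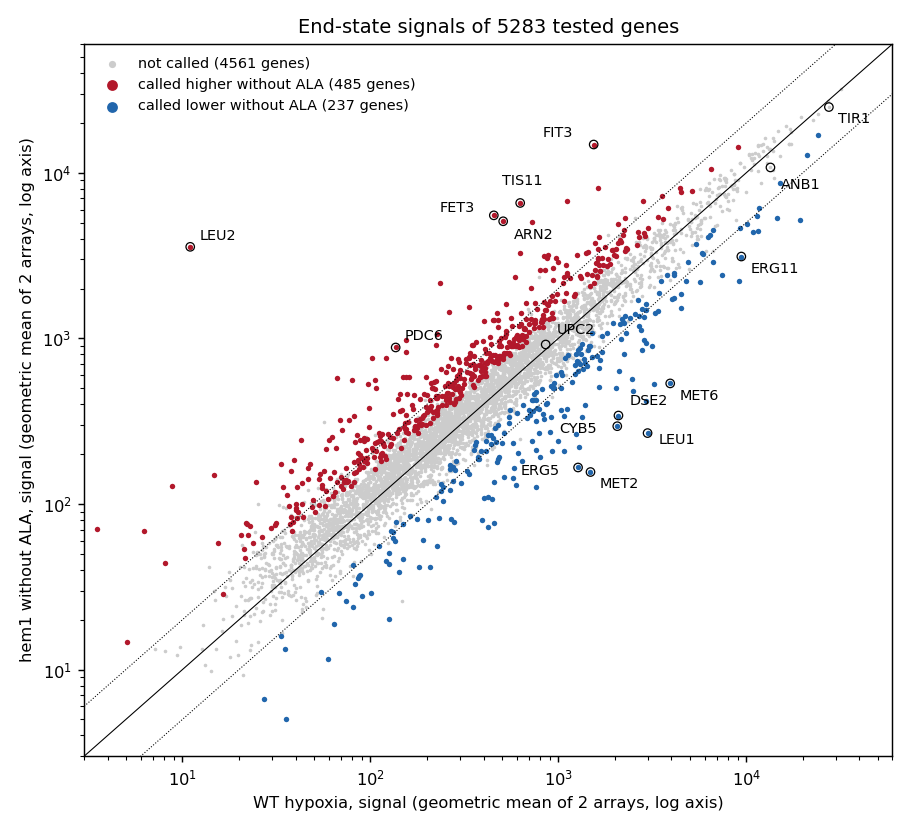
End-state signals of the 5283 tested genes, with hem1 without ALA on the vertical and WT hypoxia on the horizontal log axis; each point is the geometric mean of 2 arrays, the solid line marks equal signals and the dotted lines a 2-fold difference. Red points are the 485 genes called higher and blue points the 237 called lower in hem1 without ALA, and the circled genes are named in the text.

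Several of the best known anaerobic genes reached like levels without heme and without oxygen, as did most genes tested. Levels were called alike where the 95% interval of the log2 difference lay within -1 and 1, that is within 2-fold, which held for 3338 of the 5283 genes (63.2%). ANB1 (YJR047C), the hypoxic form of translation factor eIF5A and a classic Rox1 target, read 11879 and 9776 in hem1 without ALA, against 12336 and 14677 in hypoxia (log2 difference -0.32, 95% interval -0.70 to 0.06). Its arrays overlapped. TIR1, a cell wall mannoprotein of cold-shocked and anaerobic cells, read 26946 and 23123 in hem1 without ALA, against 25880.0 and 29299.9 in hypoxia (-0.14, 95% interval -0.48 to 0.20). TIR4, of the same family, read 16799 and 15572 in hem1 without ALA, against 12702 and 15272 in hypoxia (0.22, 95% interval -0.26 to 0.70). The sterol side followed: UPC2, the activator of sterol uptake genes, read 909 and 928 in hem1 without ALA, against 909.7 and 807 in hypoxia (0.10, 95% interval -0.29 to 0.49). AUS1, a sterol importer, read 2175 and 2229 in hem1 without ALA, against 2804 and 2731 in hypoxia on its brightest probe set (-0.33, 95% interval -0.65 to -0.01). The other 5 AUS1 probe sets were not called either, with log2 differences of -0.31 to 1.19.

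Over all genes 63.2% were alike, 4.49% were called lower and 9.18% higher, and the lists below stand beside these shares. Of the list of 21 tested Rox1-repressed genes, 15 were alike, 4 were called lower in hem1 without ALA and 0 higher. Their median log2 difference was -0.14 against 0.15 over all genes. Of the 10 tested seripauperins, a further anaerobic family, 0 were alike. Of the 8 DAN/TIR mannoproteins 5 were alike and 2 were called lower. The lower ones were DAN4 and DAN2, which is PAU23 and is counted among the seripauperins as well. Of the 18 sterol uptake and esterification genes 12 were alike, 1 was called higher and 2 lower. DAN1, the mannoprotein gene that gave the family its name, read 5919 and 6119 in hem1 without ALA, against 7492 and 8259.5 in hypoxia (-0.39, 95% interval -1.43 to 0.66), so its interval reached past 2-fold. AAC3, the anaerobic ADP/ATP carrier, read 273 and 404 in hem1 without ALA, against 402 and 404 in hypoxia (-0.28, 95% interval -0.85 to 0.29). COX5B, the hypoxic cytochrome oxidase subunit, read 688 and 608 in hem1 without ALA, against 863 and 656 in hypoxia (-0.22, 95% interval -0.63 to 0.19). Both lay within 2-fold. Genes of other oxygen-consuming enzymes of lipid synthesis gave 2 further cases. OLE1, the fatty acid desaturase, read 9739.7 and 8460.0 in hem1 without ALA, against 10153 and 7969.8 in hypoxia (0.01, 95% interval -0.34 to 0.37), and ERG3, the sterol C-5 desaturase, read 5915 and 6766, against 6059 and 6739 in hypoxia (-0.01, 95% interval -0.40 to 0.37).

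The control cultures of the strains were not alike for these genes. ANB1 read 7713 and 8217 in hem1 with ALA, against 518 and 629 in normoxia (13.9-fold higher, adjusted p = 2.1e-05), and the difference between the end-state and the control-culture difference was called as well (-4.12 on the log2 scale, adjusted p = 1.6e-04). TIR1 was 7.30-fold, TIR4 13.3-fold and UPC2 2.93-fold higher in the hem1 control culture than in normoxia. DAN1 read 1357 and 2638 in hem1 with ALA, against 11.5 and 32.7 in normoxia. Levels that stood apart between the control cultures thus met in the end states. Over all genes, 1147 were called between the control cultures (21.7%), and 718 of these (62.6%) were alike in the end states, close to the 63.2% of all genes. Of the 541 that differed at least 2-fold between the control cultures 262 were alike, and for 168 of these the difference of the differences was called. That call is made likely by the choice of such genes, so the 168 is a description.

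Not all genes of that kind are anaerobic genes. PDH1, for an enzyme of propionate breakdown, read 205 and 289 in hem1 without ALA, against 246 and 253 in hypoxia, while it read 439 and 307 in hem1 with ALA, against a dim 23.1 and 18.8 in normoxia, at least 12.8-fold higher. IDH1, a subunit of mitochondrial isocitrate dehydrogenase, read 1308 and 1317 in hem1 without ALA, against 1335 and 1585 in hypoxia, and its control cultures stood 7.02-fold apart. PDR15, a multidrug transporter, read 131 and 189.7 in hem1 without ALA, against 158 and 179 in hypoxia, and its controls 7.26-fold apart. BSC1, of unknown function, and PRM7, a pheromone-regulated gene, had control cultures 7.96-fold and 6.88-fold apart. PRM7 was alike on the brighter of its 2 probe sets (-0.38), while the other was called lower in hem1 without ALA (-0.68, adjusted p = 0.0289).

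**Figure D2:**
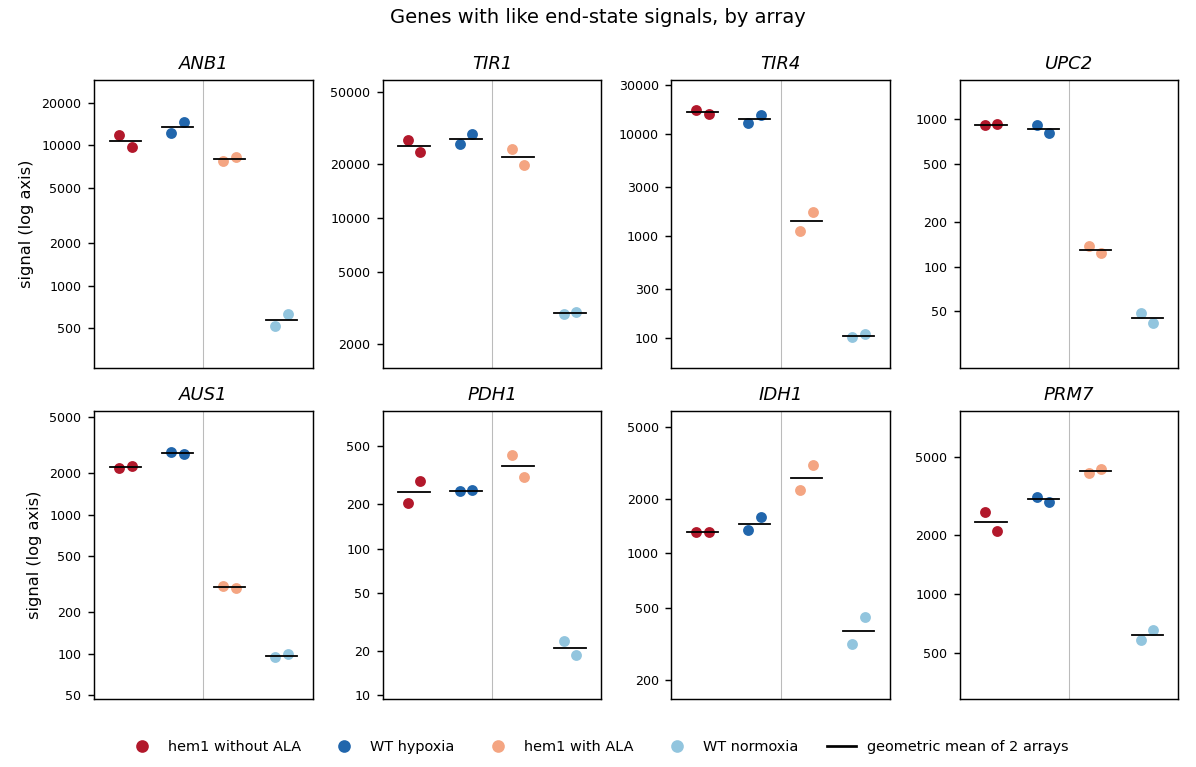
Signals of 8 genes with like end-state signals on each array (points, log axes that differ between panels) with the geometric mean of each pair (bars), in hem1 without ALA, WT hypoxia, hem1 with ALA and WT normoxia from left to right. The left pairs of each panel lie near each other, while WT normoxia lies below hem1 with ALA in all 8 panels.

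Several of the largest differences toward higher signals in hem1 without ALA were in genes of iron uptake. Of 35 tested members of the regulon of Aft1 and Aft2, the activators that respond to low iron, 23 were called higher in hem1 without ALA and 0 lower, beside 9.18% called higher over all genes. Their median log2 difference was 1.42, against 0.15 over all genes. The list holds TAF1, entered in error, which was not called. FET3 (YMR058W), the multicopper ferroxidase of high-affinity iron uptake, whose reaction consumes oxygen, read 5333 and 5748 in hem1 without ALA, against 449 and 459 in hypoxia (12.2-fold higher, log2 difference 3.61 ± 0.13 SE, adjusted p = 1.3e-05). FTR1, the permease that works with Fet3, was higher by 2.47 on the log2 scale. FRE1, a surface reductase for iron and copper, read 529 and 591 in hem1 without ALA, against 77.0 and 81.7 in hypoxia (7.05-fold higher, log2 difference 2.82 ± 0.16 SE, adjusted p = 7.2e-05). Fet3 carries copper, and CTR1, the high-affinity copper transporter, read 1165 and 824 in hem1 without ALA, against 148 and 163 in hypoxia (6.31-fold higher, log2 difference 2.66 ± 0.19 SE, adjusted p = 2.0e-04). For these 3 genes, FET3, FRE1 and CTR1, hypoxia was the lowest of the 4 groups.

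The siderophore genes, which take up iron bound to small chelators, stood as far apart. ARN2 (YHL047C), a siderophore transporter, read 4685 and 5549 in hem1 without ALA, against 530.1 and 488 in hypoxia (10.0-fold higher, log2 difference 3.32 ± 0.15 SE, adjusted p = 4.2e-05). Its relative ARN1 read 2989 and 1560.3 in hem1 without ALA, against 298 and 184 in hypoxia (9.22-fold higher, log2 difference 3.20 ± 0.33 SE, adjusted p = 8.1e-04). The cell wall mannoproteins that hold siderophores at the surface were among the brightest of the group. FIT3 read 16581 and 13253 in hem1 without ALA, against 1404 and 1695 in hypoxia (9.61-fold higher, log2 difference 3.26 ± 0.16 SE, adjusted p = 4.5e-05), and FIT2 read 5453 and 4709 in hem1 without ALA, against 709.7 and 742 in hypoxia (6.98-fold higher, log2 difference 2.80 ± 0.19 SE, adjusted p = 1.2e-04). Arrays that do not overlap were a condition for naming the largest differences, and 61.0% of all genes met it. TIS11 (YLR136C), an RNA-binding protein that promotes decay of messenger RNAs of iron-using enzymes, read 6282 and 6882 in hem1 without ALA, against 555 and 707 in hypoxia (10.5-fold higher, log2 difference 3.39 ± 0.27 SE, adjusted p = 2.8e-04). ISU1, the scaffold of iron-sulfur cluster assembly, read 2893 and 3199 in hem1 without ALA, against 896 and 1060.1 in hypoxia (3.12-fold higher, log2 difference 1.64 ± 0.15 SE, adjusted p = 5.7e-04). FET4, a low-affinity iron transporter known as a hypoxic gene, read 1717 and 1303 in hem1 without ALA, against 647 and 741 in hypoxia, a 2.16-fold difference that was not called (adjusted p = 0.0656).

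Most of the iron difference was already there between the control cultures. Of the 23 genes called higher in the end state, 21 were also called higher in hem1 with ALA when set against normoxia, and the median log2 difference of the list between the control cultures was 1.33. ARN2 read 4805 and 4431 in hem1 with ALA, against 343 and 314 in normoxia, and FIT3 read 14333 and 14122 in hem1 with ALA, against 1190.2 and 1345 in normoxia. The difference of the differences was not called for either. FET3, FRE1 and CTR1 were different in this respect. FET3 read 5509.5 and 6083 in hem1 with ALA, against 3073 and 2993 in normoxia, and its end-state difference exceeded that of the control cultures by 2.68 on the log2 scale (adjusted p = 2.7e-04). For FRE1 the excess was 2.02 (0.0013) and for CTR1 2.04 (0.00324). For FIT2 the end-state difference was the smaller of the differences (-1.40, adjusted p = 0.0104). The count of 23 was 17 without hypoxia array 1 and 14 without the arrays that read high for 18S. FET3 was called under every alternative run (adjusted p up to 0.0109).

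**Figure D3:**
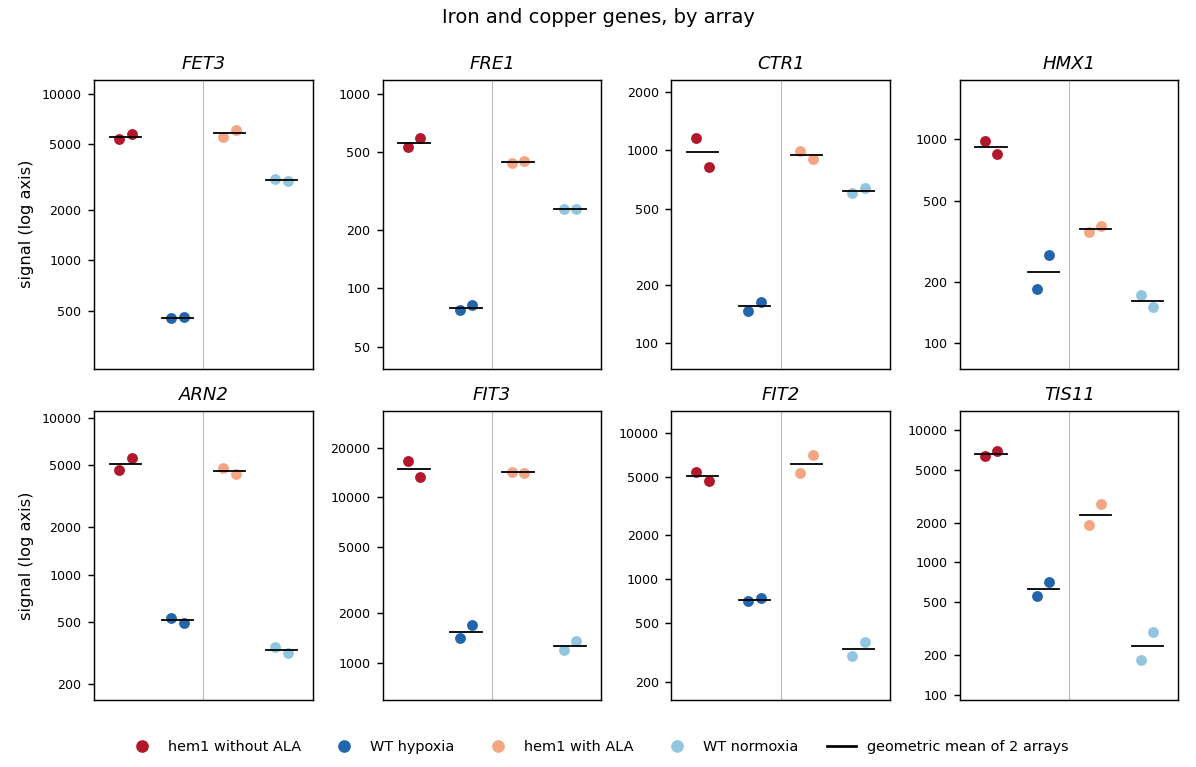
Signals of 8 iron and copper genes on each array (points, log axes that differ between panels) with the geometric mean of each pair (bars), in hem1 without ALA, WT hypoxia, hem1 with ALA and WT normoxia from left to right. For FET3, FRE1 and CTR1 WT hypoxia is the lowest group, while for ARN2, FIT3, FIT2, TIS11 and HMX1 it lies above WT normoxia.

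Sulfur assimilation ran the other way and was higher in hypoxia. Of 41 tested genes of sulfate assimilation and methionine synthesis, 23 were called lower in hem1 without ALA, beside 4.49% called lower over all genes, and 2 were called higher. The median log2 difference was -1.19. MET2 (YNL277W), homoserine acetyltransferase, read 169 and 144 in hem1 without ALA, against 1396 and 1576 in hypoxia (9.51-fold lower, log2 difference -3.25 ± 0.19 SE, adjusted p = 7.2e-05). MET17, the enzyme that fixes sulfide into homocysteine, read 2196 and 2227 in hem1 without ALA, against 8815 and 9503 in hypoxia (4.14-fold lower, log2 difference -2.05 ± 0.14 SE, adjusted p = 1.5e-04). MET6, methionine synthase, read 399 and 716 in hem1 without ALA, against 4125 and 3762 in hypoxia (7.37-fold lower, log2 difference -2.88 ± 0.32 SE, adjusted p = 0.00122). In all 3 the groups were far apart, though the arrays of hem1 without ALA were themselves unlike for MET6.

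Sulfite reductase carries siroheme, which is made from an intermediate of the heme pathway. MET5, its beta subunit, read 213 and 204 in hem1 without ALA, against 997 and 1161 in hypoxia (5.16-fold lower, log2 difference -2.37 ± 0.17 SE, adjusted p = 2.0e-04). The alpha subunit gene MET10 was lower by 1.55 on the log2 scale, and the siroheme synthesis genes MET1 and MET8 were lower by 2.01 and 1.80. MMP1, a permease for S-methylmethionine, read 75.8 and 69.8 in hem1 without ALA, against 415 and 431 in hypoxia (5.81-fold lower, log2 difference -2.54 ± 0.23 SE, adjusted p = 4.6e-04). The 2 genes that went the other way serve other sulfur sources. JLP1, a dioxygenase that releases sulfite from sulfonates, read 118 and 157 in hem1 without ALA, against a dim 20.7 and 29.5 in hypoxia (at least 3.25-fold higher, adjusted p = 0.0113). YCT1, a cysteine transporter, read 763 and 742 in hem1 without ALA, against 303 and 343 in hypoxia (2.33-fold higher, log2 difference 1.22 ± 0.29 SE, adjusted p = 0.0249). JLP1 and YCT1 were no longer called without either hem1 array or without hypoxia array 1 (adjusted p up to 0.145 and 0.208 over the alternatives), and YCT1 also not without hypoxia array 2.

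The control cultures did not show this sulfur difference. Between them 1 of the 41 genes was called lower and 9 were called higher in hem1 with ALA when compared with normoxia, and the median log2 difference was 0.25. Of the 25 genes called in the end state, 20 had a called difference of the differences. MET5 read 218 and 191 in hem1 with ALA, against 238 and 203 in normoxia, and MET6 read 509 and 593 in hem1 with ALA, against 734 and 417 in normoxia. In both genes hypoxia alone stood high. MET2 was reversed, with 95.4 and 112 in hem1 with ALA, against a dim 22.5 and 25.8 in normoxia, and had the difference of the differences -5.35 (adjusted p = 9.6e-05). The 23 lower calls became 16 without hypoxia array 1 and 10 without the arrays that read high for 18S.

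Of 24 tested genes of ergosterol synthesis 11 were called lower in hem1 without ALA and 1 higher, beside 4.49% lower and 9.18% higher over all genes, with a median log2 difference of -0.59. The P450 enzymes of the pathway, which carry heme, were among them. ERG5 (YMR015C), the sterol C-22 desaturase, read 178 and 155 in hem1 without ALA, against 1299.6 and 1248 in hypoxia (7.67-fold lower, log2 difference -2.94 ± 0.25 SE, adjusted p = 3.8e-04). ERG11, lanosterol 14-demethylase, read 3246 and 3003 in hem1 without ALA, against 9698 and 9146 in hypoxia (3.02-fold lower, log2 difference -1.59 ± 0.15 SE, adjusted p = 5.7e-04). CYB5, the cytochrome b5 that passes electrons to sterol and lipid enzymes, read 284 and 307 in hem1 without ALA, against 2011 and 2109 in hypoxia (6.98-fold lower, log2 difference -2.80 ± 0.17 SE, adjusted p = 7.2e-05). Hypoxia was the highest of the 4 groups for ERG5, ERG11 and CYB5. The difference was not restricted to heme enzymes: ERG7, lanosterol synthase, read 87.2 and 139.6 in hem1 without ALA, against 455 and 389 in hypoxia (3.82-fold lower, log2 difference -1.93 ± 0.24 SE, adjusted p = 0.00204).

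Among the reductases at the entry of the pathway, HMG1 read 827 and 991 in hem1 without ALA, against 1436 and 1489 in hypoxia (1.62-fold lower, log2 difference -0.69 ± 0.15 SE, adjusted p = 0.0174), a call lost in 3 of the 4 fits without an end-state array (adjusted p up to 0.18 over the alternatives). HMG2, its isozyme of low-oxygen cells, read 2683 and 2550.0 in hem1 without ALA, against 2881 and 3455 in hypoxia and was alike (-0.27, 95% interval -0.70 to 0.16). ERG4, the last step, was the 1 gene called higher, at 1211 and 1162 in hem1 without ALA, against 821 and 469.9 in hypoxia (adjusted p = 0.0453), and lost its call under 13 alternatives, median centring among them. The control cultures were less split: 4 of the 24 genes were called lower in hem1 with ALA and 1 higher. ERG11 read 5921 and 4647 in hem1 with ALA, against 5391 and 5259 in normoxia, with a difference of the differences of -1.57 (adjusted p = 0.00322). The count of 11 became 5 without the arrays that read high for 18S.

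Of 21 tested genes listed as activated by Hap1 in aerobic cells, 12 were called lower in hem1 without ALA and 1 was called higher. Over all genes these shares were 4.49% lower and 9.18% higher, and the median log2 difference of the list was -0.75. ERG5, ERG11, CYB5 and HMG1 belong to this list too. HEM13 and CYC7 are among the 12 and are also counted as lower among the Rox1-repressed genes. Between the control cultures 11 of the 21 were called lower in hem1 with ALA and 3 higher, with a median of -0.58. Of the 13 genes called in the end state, 8 were called in the same direction between the control cultures and 2 in the opposite. The difference of the differences was called for 6 of the 13. YHB1 (YGR234W), the flavohemoglobin that detoxifies nitric oxide, read 254 and 227 in hem1 without ALA, against 1084 and 921 in hypoxia (4.16-fold lower, log2 difference -2.06 ± 0.16 SE, adjusted p = 2.5e-04). Its other 2 tested probe sets were called lower as well. SOD2, mitochondrial superoxide dismutase, read 172 and 194 in hem1 without ALA, against 644 and 637 in hypoxia (3.51-fold lower, log2 difference -1.81 ± 0.18 SE, adjusted p = 7.4e-04). CCP1, mitochondrial cytochrome c peroxidase, a heme enzyme outside the Hap1 list, read 135 and 154 in hem1 without ALA, against 486 and 671 in hypoxia (3.96-fold lower, log2 difference -1.99 ± 0.24 SE, adjusted p = 0.00167). In these 3 genes normoxia lay above hem1 with ALA as well. CTT1, cytosolic catalase, read a dim 30.6 and 35.0 in hem1 without ALA, against 98.8 and 68.7 in hypoxia, at least 1.73-fold lower (adjusted p = 0.0361), and was no longer called without any 1 of the 4 end-state arrays (adjusted p up to 0.228 over the alternatives). DLD1, mitochondrial D-lactate dehydrogenase, was the 1 member called higher (1811 and 1816 in hem1 without ALA, against 1089 and 1335 in hypoxia, adjusted p = 0.0362), but lost that call under 10 alternatives, median centring among them.

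The cytochrome c genes separated from each other. CYC1, the main aerobic form, was dim in both end states at 10.9 and 13.7 in hem1 without ALA and 22.2 and 17.6 in hypoxia, and also at 18.3 and 32.1 in hem1 with ALA, against 660.4 and 809.6 in normoxia. CYC7, the form favoured at low oxygen, read 59.5 and 52.3 in hem1 without ALA, against 212 and 239 in hypoxia (4.03-fold lower, log2 difference -2.01 ± 0.22 SE, adjusted p = 0.00102). COX5A, the aerobic cytochrome oxidase subunit, read 123 and 132 in hem1 without ALA, against 164 and 155 in hypoxia and was alike (-0.33, 95% interval -0.69 to 0.03). Of 27 nuclear genes of the respiratory chain 10 were called lower in hem1 without ALA, beside 4.49% of all genes, and 0 higher, with a median log2 difference of -0.58. SDH2, the iron-sulfur subunit of succinate dehydrogenase, read 529 and 495 in hem1 without ALA, against 1442 and 1895 in hypoxia (3.23-fold lower, log2 difference -1.69 ± 0.23 SE, adjusted p = 0.00313). CYT1, cytochrome c1, read a dim 45.0 and 41.8 in hem1 without ALA, against 125 and 126 in hypoxia, at least 2.64-fold lower (adjusted p = 0.00284). The control cultures were called in the same direction for 9 of these 10 genes, and the difference of the differences was called for 0 of the 10. Without the arrays that read high for 18S, 1 respiratory gene and 7 genes of the Hap1 list were called lower, and the respiratory count was 5 without hypoxia array 1.

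Among 16 tested oxygen and heme regulators 1 was called lower (6.25%, beside 4.49% of all genes) and 0 higher (beside 9.18%). ROX1 read 59.2 and 53.6 in hem1 without ALA, against a dim 27.0 and 36.6 in hypoxia (adjusted p = 0.0686). HAP1 read 684 and 626 in hem1 without ALA, against 1581 and 1153 in hypoxia on its brightest probe set (2.06-fold lower, log2 difference -1.05 ± 0.19 SE, adjusted p = 0.0105), a call lost without hem1 array 2 and without hypoxia array 1 (adjusted p up to 0.0761 over the alternatives). Its probe sets disagreed: another was called lower (-1.41), while the third was not called (0.28, adjusted p = 0.249). Both probe sets called lower carry an f suffix, used where probes may be shared within a sequence family. The third, without that suffix, read 1146 and 1151 in hem1 without ALA and 916 and 982 in hypoxia. On it the control cultures read 283 and 287 in hem1 with ALA and 200 and 184 in normoxia.

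Of 11 heme synthesis genes 4 were called lower in hem1 without ALA, beside 4.49% of all genes, and 0 higher. The 4 were HEM13, HEM15, COX15, of heme A synthesis, and HEM1, the gene deleted in 1 of the strains. As given above, the HEM1 probe set is no check of that deletion. HEM13, coproporphyrinogen oxidase, the oxygen-consuming step and a Rox1 target, read 459.8 and 866 in hem1 without ALA, against 2406 and 1817 in hypoxia (3.31-fold lower, log2 difference -1.73 ± 0.38 SE, adjusted p = 0.0196). HEM15, ferrochelatase, which inserts iron in the last step, read 1027 and 1127 in hem1 without ALA, against 2164 and 2443 in hypoxia (2.14-fold lower, log2 difference -1.10 ± 0.15 SE, adjusted p = 0.00341). HMX1, the heme oxygenase, also an Aft1 target, read 982 and 849 in hem1 without ALA, against 184 and 271 in hypoxia (4.09-fold higher, log2 difference 2.03 ± 0.21 SE, adjusted p = 9.4e-04). PUG1, a porphyrin and heme transporter, read 819.7 and 417 in hem1 without ALA, against 171 and 149.9 in hypoxia (3.65-fold higher, log2 difference 1.87 ± 0.33 SE, adjusted p = 0.00875). The arrays of hem1 without ALA were wide apart for HEM13 and PUG1, and both calls were lost without either hypoxia array (adjusted p up to 0.161 and 0.146 over the alternatives). HEM13 was also not called without hem1 array 1. In the control cultures HEM13 was reversed, with 524 and 756 in hem1 with ALA, against 363 and 194 in normoxia. Of the 4 called synthesis genes, 2 were called in the same direction between the control cultures and 1 in the opposite. Their difference of the differences was called for 1. Among 9 tested genes of heme and porphyrin handling 3 were called higher, HMX1 and PUG1 among them, beside 9.18% of all genes. Another 3, YHB1, CCP1 and CTT1, were called lower, beside 4.49%, and the median log2 difference was -0.39. Between the control cultures 5 of these 6 were called in the same direction. The difference of the differences was called for 1 of the 6. The synthesis list had 2 lower calls without hypoxia array 1 or array 2, and 0 without the arrays that read high for 18S.

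**Figure D4:**
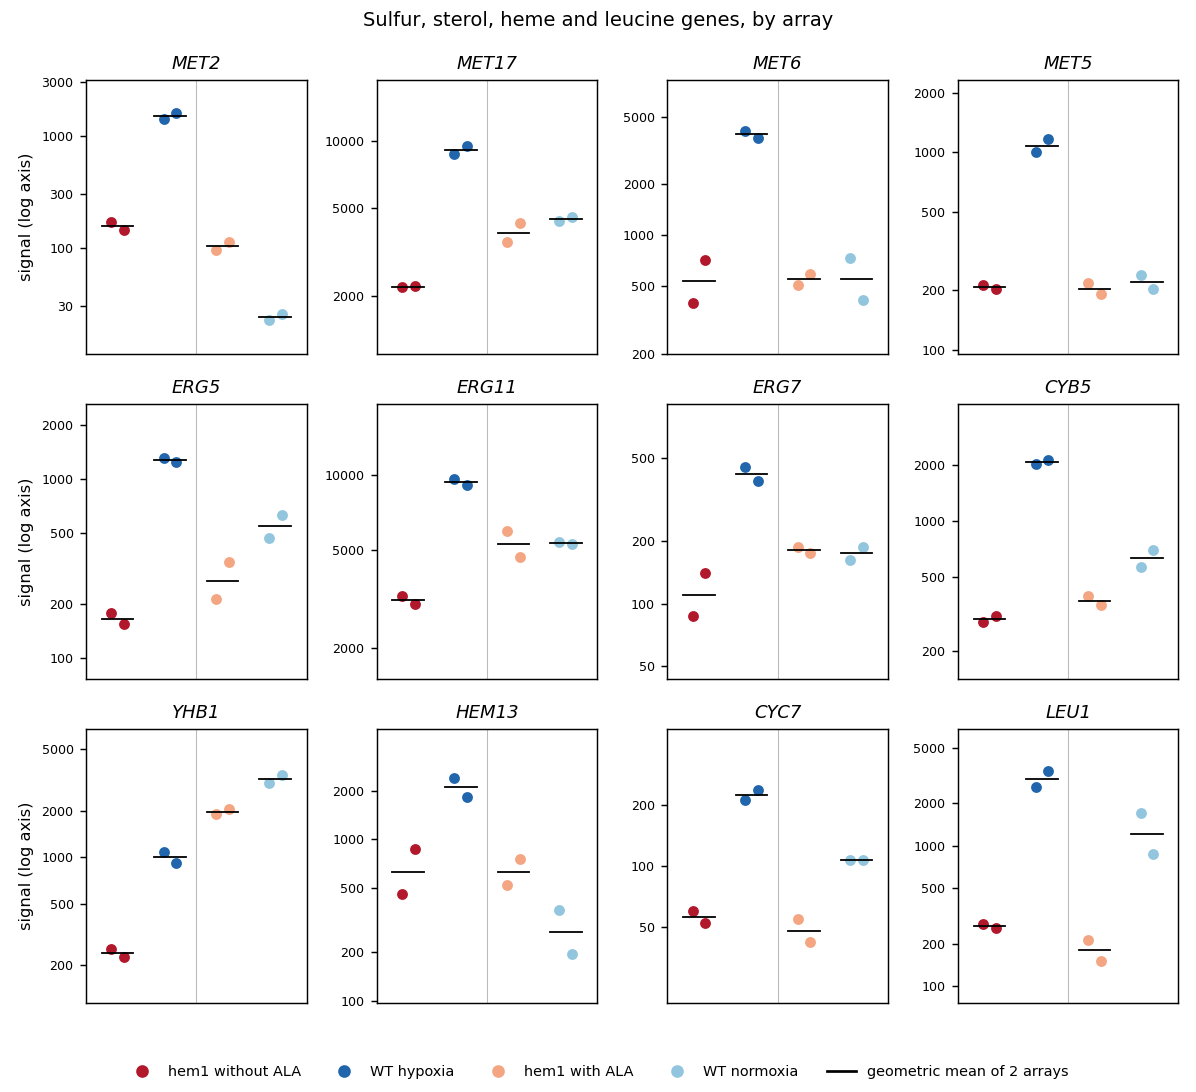
Signals of 12 genes of sulfur, sterol, heme and leucine metabolism on each array (points, log axes that differ between panels) with the geometric mean of each pair (bars), in hem1 without ALA, WT hypoxia, hem1 with ALA and WT normoxia from left to right. In all 12 panels WT hypoxia lies above hem1 without ALA, and in all panels but that of YHB1 it is the highest of the 4 groups.

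Leucine and branched-chain synthesis split within its own pathway. Of 17 tested genes 6 were called lower and 3 higher in hem1 without ALA, beside 4.49% and 9.18% of all genes. LEU1 (YGL009C), isopropylmalate isomerase, an iron-sulfur enzyme, read 276 and 261 in hem1 without ALA, against 2624 and 3397 in hypoxia (11.1-fold lower, log2 difference -3.48 ± 0.32 SE, adjusted p = 5.0e-04). BAT1, the mitochondrial branched-chain transaminase, read 662 and 424 in hem1 without ALA, against 3125 and 3346 in hypoxia (6.11-fold lower, log2 difference -2.61 ± 0.21 SE, adjusted p = 3.2e-04). OAC1, a mitochondrial carrier, read 841 and 961 in hem1 without ALA, against 3033 and 3294 in hypoxia (3.52-fold lower, log2 difference -1.81 ± 0.14 SE, adjusted p = 2.8e-04). These 3 genes were higher in wild type in both conditions: LEU1 read 213 and 152 in hem1 with ALA, against 1716 and 868 in normoxia, and OAC1 read 675 and 691 in hem1 with ALA, against 2564 and 2769 in normoxia. LEU2, the next enzyme, was the most different of all genes in the opposite direction, as given above, and it was higher in the hem1 strain in both conditions. Without the arrays that read high for 18S, 6 were called lower and 2 higher.

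Of 19 tested daughter-cell and cell separation genes 9 were called lower in hem1 without ALA, beside 4.49% of all genes, and 0 higher, with a median log2 difference of -0.81. DSE2 (YHR143W), a daughter-cell glucanase-like protein, read 376 and 311 in hem1 without ALA, against 2271 and 1923 in hypoxia (6.11-fold lower, log2 difference -2.61 ± 0.16 SE, adjusted p = 7.2e-05). DSE4, an endoglucanase that opens the septum, read 131 and 121 in hem1 without ALA, against 721 and 799 in hypoxia (6.03-fold lower, log2 difference -2.59 ± 0.19 SE, adjusted p = 2.0e-04). PIR1, a cell wall protein, read 355 and 315 in hem1 without ALA, against 1184 and 1525 in hypoxia (4.02-fold lower, log2 difference -2.01 ± 0.19 SE, adjusted p = 6.2e-04). In the control cultures DSE2 was brighter and about level, at 6271 and 6171 in hem1 with ALA and 5573 and 5126 in normoxia. The difference of the differences was called for 8 of the 9 genes, among them DSE2 (-2.83, adjusted p = 4.4e-04).

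Some genes of the start of the cell cycle and of mating were called higher, and most were not called. Of 33 tested G1/S and replication genes 9 were called higher in hem1 without ALA, beside 9.18% of all genes, and 0 lower. RNR1, the large subunit of ribonucleotide reductase, read 314 and 269 in hem1 without ALA, against 104 and 92.9 in hypoxia (2.95-fold higher, log2 difference 1.56 ± 0.16 SE, adjusted p = 8.5e-04), while both control cultures lay far above, at 1865 and 1785 in hem1 with ALA and 1166 and 1248 in normoxia. Of 22 haploid and pheromone response genes 7 were called higher, beside the same 9.18%, and 0 lower. Between the control cultures 4 of these 7 were called in the same direction. KAR4, a transcription factor of nuclear fusion, read 224 and 284 in hem1 without ALA, against 63.7 and 60.8 in hypoxia (4.05-fold higher, log2 difference 2.02 ± 0.29 SE, adjusted p = 0.00379). PRM4, a pheromone-regulated gene, read 3382 and 2901 in hem1 without ALA, against 772 and 909 in hypoxia (3.74-fold higher, log2 difference 1.90 ± 0.17 SE, adjusted p = 4.1e-04). These counts rest on few arrays: the 9 became 1 and the 7 became 3 without hypoxia array 1, and each became 1 without the arrays that read high for 18S.

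Of 4 genes specific to alpha cells 3 were called higher in hem1 without ALA, and of 4 tested genes specific to a cells 1, beside 9.18% of all genes. MF(ALPHA)1, the main gene for the alpha pheromone, read 7897 and 7769.5 in hem1 without ALA, against 6161 and 5907 in hypoxia, and was not called (adjusted p = 0.0687). MF(ALPHA)2, a gene for the alpha pheromone, read 400.0 and 626 in hem1 without ALA, against 125 and 91.2 in hypoxia (4.69-fold higher, log2 difference 2.23 ± 0.27 SE, adjusted p = 0.00175). STE3, the receptor alpha cells use, read 641 and 949 in hem1 without ALA, against 386 and 325 in hypoxia (2.20-fold higher, log2 difference 1.14 ± 0.21 SE, adjusted p = 0.00925). SAG1, the alpha-agglutinin, read 1017 and 1981 in hem1 without ALA, against 494 and 447 in hypoxia (3.02-fold higher, log2 difference 1.59 ± 0.30 SE, adjusted p = 0.0113). The control cultures were brighter for MF(ALPHA)2, STE3 and SAG1 and did not differ past the threshold in any, and the difference of the differences was called for each. MFA2, for the pheromone of a cells, read a low 167 and 152 in hem1 without ALA, against 46.8 and 68.2 in hypoxia (2.82-fold higher, log2 difference 1.49 ± 0.25 SE, adjusted p = 0.00623), and MFA1 read 264 and 368, against 52.4 and 60.9 in hypoxia without being called (adjusted p = 0.165). STE3 was no longer called without hypoxia array 2 (adjusted p up to 0.0582 over the alternatives), nor SAG1 without either hypoxia array (up to 0.073), nor MFA2 without hypoxia array 1 (up to 0.0637).

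Hypoxia had the higher levels of the seripauperins, a large family of anaerobic cell wall proteins with near-identical copies, so that single members are uncertain. Of 10 tested 9 were called lower in hem1 without ALA, beside 4.49% of all genes; the other, PAU7, named after its value was seen, was lower in its estimate too. Their median log2 difference was -1.18. PAU23 read 4552 and 5919 in hem1 without ALA, against 18400.5 and 20127 in hypoxia (3.71-fold lower, log2 difference -1.89 ± 0.21 SE, adjusted p = 0.00128). PAU10 read 5752 and 4938 in hem1 without ALA, against 15511 and 13546 in hypoxia (2.72-fold lower, log2 difference -1.44 ± 0.22 SE, adjusted p = 0.00448), and PAU16 read 4780.4 and 4008 in hem1 without ALA, against 10295 and 11337 in hypoxia (2.47-fold lower, log2 difference -1.30 ± 0.16 SE, adjusted p = 0.00177). DAN4, a mannoprotein, read 1318 and 1387 in hem1 without ALA, against 2617 and 3127 in hypoxia (2.12-fold lower, log2 difference -1.08 ± 0.19 SE, adjusted p = 0.00827). In both end states these genes were bright: PAU23 had only 272 and 372 in hem1 with ALA and 153 and 194 in normoxia. The control cultures went the opposite way, with 8 of the 10 seripauperins called higher in hem1 with ALA. The 9 calls became 4 without hypoxia array 1 and 1 without the arrays that read high for 18S, and DAN4 lost its call without hypoxia array 2 (adjusted p up to 0.152 over the alternatives), as did PAU10 without hypoxia array 1 (up to 0.0627).

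Carbon and vitamin genes gave smaller groups of calls. Of 19 tested genes of the glyoxylate cycle, gluconeogenesis and acetate use, which glucose represses, 7 were called higher in hem1 without ALA, beside 9.18% of all genes, and 0 lower. PCK1, the gluconeogenic PEP carboxykinase, read 3019.7 and 3372 in hem1 without ALA, against 823 and 935 in hypoxia (3.64-fold higher, log2 difference 1.86 ± 0.20 SE, adjusted p = 9.4e-04). ADH2, the ethanol-oxidising alcohol dehydrogenase, read 321 and 357 in hem1 without ALA, against 77.9 and 85.9 in hypoxia (4.14-fold higher, log2 difference 2.05 ± 0.22 SE, adjusted p = 9.6e-04). HXT1, a low-affinity glucose transporter that glucose induces, was also higher, at 9308 and 7129 in hem1 without ALA, against 2109.6 and 1252 in hypoxia (5.01-fold higher, log2 difference 2.33 ± 0.24 SE, adjusted p = 9.4e-04). The hexose transporters share sequence, so its value is uncertain. PDC6, a minor pyruvate decarboxylase, read 975 and 797 in hem1 without ALA, against 126 and 147 in hypoxia (6.47-fold higher, log2 difference 2.69 ± 0.23 SE, adjusted p = 4.0e-04), and was dim in both control cultures. Of 15 thiamine genes 8 were called higher and 1 lower, beside 9.18% and 4.49% of all genes. THI4, of thiazole synthesis, read 2723 and 2455 in hem1 without ALA, against 849.8 and 847 in hypoxia (3.05-fold higher, log2 difference 1.61 ± 0.16 SE, adjusted p = 6.6e-04). The 8 thiamine calls became 4, and the 7 of glyoxylate and related genes 3, without hypoxia array 1.

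Several of the largest differences fell outside these groups. YNR014W, of unknown function, read 483 and 684 in hem1 without ALA, against 50.2 and 87.9 in hypoxia (8.66-fold higher, log2 difference 3.11 ± 0.31 SE, adjusted p = 7.0e-04), with 49.5 and 65.7 in hem1 with ALA and 87.1 and 92.7 in normoxia. Only hem1 without ALA was high for this gene. YAR068W, another gene of unknown function, read 645 and 892 in hem1 without ALA, against 83.7 and 124 in hypoxia (7.45-fold higher, log2 difference 2.90 ± 0.24 SE, adjusted p = 3.6e-04). YNL194C, a membrane protein gene of the SUR7 family, read 159 and 189 in hem1 without ALA, against a dim 36.6 and 30.6 in hypoxia, at least 4.14-fold higher (adjusted p = 0.0157), a call lost without any 1 of the end-state arrays (adjusted p up to 0.297 over the alternatives). It was tested only through its hem1 without ALA arrays, since all other groups were dim. On the lower side SCM4, a mitochondrial outer membrane protein, read 423 and 413 in hem1 without ALA, against 3299.7 and 2577 in hypoxia (6.98-fold lower, log2 difference -2.80 ± 0.17 SE, adjusted p = 7.8e-05). EEB1, which forms ethyl esters of fatty acids, read 221 and 222 in hem1 without ALA, against 1388 and 1199 in hypoxia (5.82-fold lower, log2 difference -2.54 ± 0.18 SE, adjusted p = 1.5e-04).

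A few genes changed sides between the end states and the control cultures. ECM13, of unknown function, read 67.7 and 87.1 in hem1 without ALA, against 457 and 450.3 in hypoxia (5.91-fold lower, log2 difference -2.56 ± 0.19 SE, adjusted p = 2.0e-04), but 864 and 892 in hem1 with ALA, against 99.5 and 82.4 in normoxia. REE1, a cytoplasmic protein linked to enolase, did the reverse, with 1556 and 1531 in hem1 without ALA, against 301 and 371 in hypoxia (4.61-fold higher, log2 difference 2.21 ± 0.20 SE, adjusted p = 4.6e-04), and 1430.2 and 1602 in hem1 with ALA, against 2064 and 2892 in normoxia. DSE4, MET2 and EEB1 belong here as well. In all, 94 genes were called in both comparisons in opposite directions. A further 188 were called in both in the same direction, which is 26.0% of the end-state calls and 16.4% of the 1147 control-culture calls. The remaining 440 end-state calls were not called between the control cultures, and for 208 of them the difference of the differences was called. Over all genes that difference was called for 859 (16.3%), and 21.7% of genes were called between the control cultures, 12.6% higher and 9.12% lower in hem1 with ALA.

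Large housekeeping groups stood near level. Of 71 ribosome biogenesis genes 1 was called higher in hem1 without ALA, 0 lower, and 60 were alike. The gene called was TIF6, needed for the large ribosomal subunit, at 2673 and 2989 in hem1 without ALA, against 1838 and 1916 in hypoxia (adjusted p = 0.021), and it was not called under 6 alternatives, median centring among them. Between the control cultures 22 of the 71 were called higher in hem1 with ALA, and all 22 were alike in the end states. Of 81 cytosolic ribosomal protein genes, many of them in near-identical pairs, 8 were called higher (9.88%, beside 9.18% of all genes), 0 lower, and 75 were alike; with quantile normalization 19 were called higher. Of 27 glycolysis and fermentation genes 23 were alike and PDC6 was the only call. Of 65 mitochondrial ribosomal protein genes 1 was called higher and 1 lower. ACT1, actin, read 12705 and 10314 in hem1 without ALA, against 12970.5 and 12941 in hypoxia and was alike (-0.18, 95% interval -0.52 to 0.17).

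**Figure D5:**
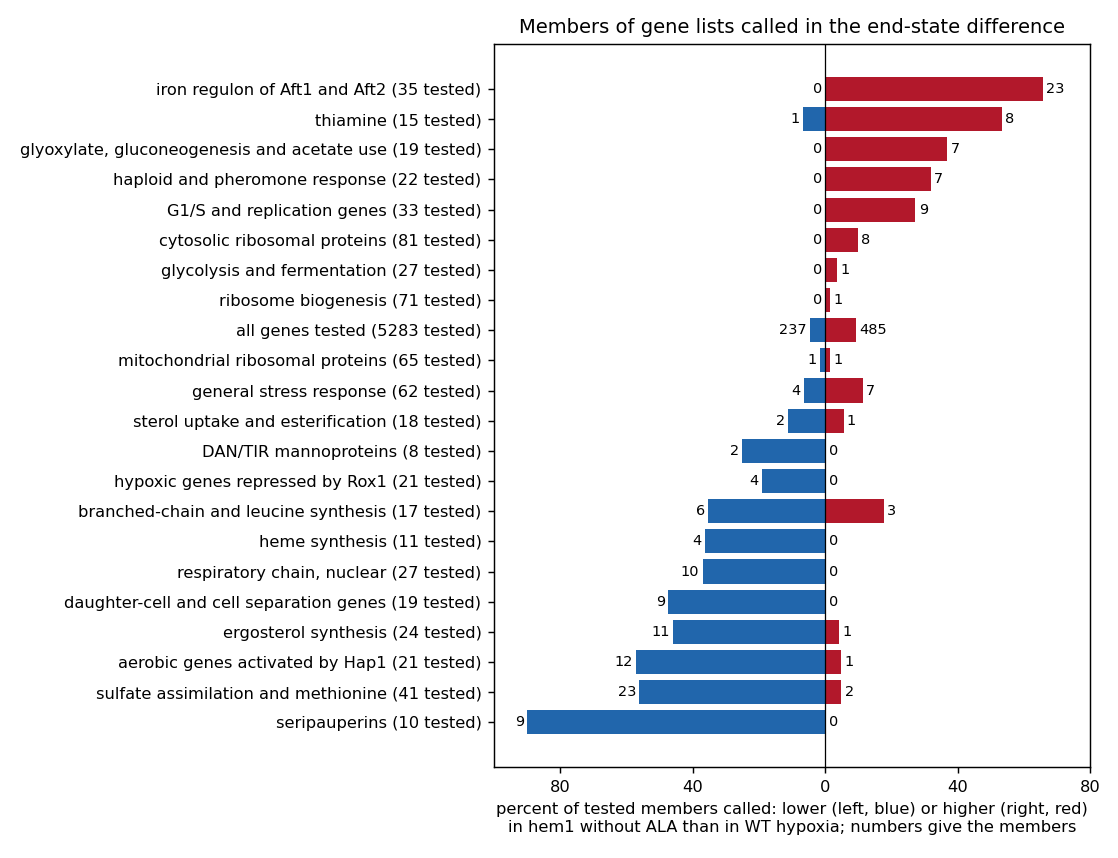
Percent of the tested members of 21 gene lists, and of all 5283 genes, that were called higher (right, red) or lower (left, blue) in hem1 without ALA than in WT hypoxia, with the number of members beside each bar. Iron genes reach the farthest to the right (23 of 35) and seripauperins the farthest to the left (9 of 10), while ribosome biogenesis and glycolysis lists have 1 call each.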

How the data were processed

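Total RNA of 8 yeast samples was hybridised to 1 array each. The authors deposited 1 linear signal intensity per probe set, computed by MAS5 per the submitters' processing notes, which name no version. The values show that the authors scaled each array to 1 trimmed mean, under which a broad difference in some genes moves the others. The log2 signals were fitted here with limma 3.58.1 in R 4.3.3: 4 group means over 8 arrays, moderated statistics with an intensity trend, 4 residual and 4.36 prior degrees of freedom, Benjamini-Hochberg adjustment over 7081 probe sets. The fit was tested on simulated data. A gene is represented by its brightest probe set with 1 gene in the platform annotation; 6504 probe sets had 1 gene, 328 several and 2443 none, and names follow RefSeq R64. No build is named for the array, so no positions are given. The end-state and control-culture comparisons share no arrays; the difference of the differences uses all. The 49 lists come from textbook knowledge, and lists and members were chosen with earlier results of these data known. Named are the 12 largest called differences per direction among genes whose end-state arrays did not overlap. A choice of list members with the smallest adjusted p was added, with 29 genes given whatever their values. The 8 genes with the largest control-culture differences among those of like end level were named too. So were the 6 called in opposite directions with the largest end-state fold. The number of arrays limits the precision. Alternatives covered scaling, filters, floor, trend, arrays left out and probe sets averaged.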

Additional observations from a re-analysis of the deposited data

Results flagged for a closer look

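The end-state difference (hem1 without ALA minus hypoxia) departed from the control-culture difference (hem1 with ALA minus normoxia) for 859 of 5283 genes by limma's test of the difference of the differences. Each value below is that log2 quantity, and the test was an interaction with an adjusted p under 0.05.

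Among iron and copper genes it was 2.68 for FET3, 2.02 for FRE1, 2.04 for CTR1 and -1.40 for FIT2. Among sulfur genes it was -5.35 for MET2, -2.87 for MET6, -2.76 for MMP1, -2.26 for MET5 and -1.84 for MET17. Sterol genes gave -1.93 for ERG5, -1.99 for ERG7, -1.57 for ERG11 and -2.04 for CYB5. The heme, respiratory and Hap1 genes gave -2.98 for HEM13, -1.36 for YHB1, -1.67 for HAP1 and 1.16 for DLD1. COX5A gave 1.22, and CYC1, which was dim in all groups but normoxia, gave 4.22. The HAP1 value is that of its brightest probe set, which carries the f suffix and may share probes within a sequence family. The HAP1 probe sets disagreed in the end-state difference.

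The anaerobic and sterol uptake genes, whose estimates were all higher in hem1 with ALA when set against normoxia, gave -4.12 for ANB1, -3.01 for TIR1, -3.51 for TIR4, -6.99 for DAN1, -1.60 for DAN4, -1.97 for AUS1, -1.45 for UPC2 and -2.24 for AAC3. The seripauperins gave -2.77 for PAU23, -1.80 for PAU16 and -3.28 for PAU10. Genes of like end level outside these groups gave -4.17 for PDH1, -2.66 for BSC1, -2.96 for PDR15, -2.96 for IDH1 and -3.16 for PRM7. These genes and TIR4 were named for a large control-culture difference and a like end level. A large value here follows from that choice and is no separate result.

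Cell separation genes gave -2.83 for DSE2, -4.07 for DSE4 and -2.12 for PIR1. Cell cycle and mating genes gave 0.96 for RNR1, 1.66 for KAR4, 2.54 for MF(ALPHA)2, 1.16 for STE3 and 1.69 for SAG1. The other genes gave 3.77 for YNR014W, 1.65 for PDC6, -1.03 for SCM4, -1.32 for BAT1, -5.84 for ECM13, -3.44 for EEB1, 1.74 for ADH2, 0.64 for TIF6, 2.90 for REE1 and 3.98 for YNL194C. For genes called in opposite directions in the comparisons, ECM13 and REE1 among them, a large value follows from those calls. YNL194C was dim in all groups but hem1 without ALA, CYC1 in all groups but normoxia, and PDC6 in both control cultures. MET2 and PDH1 were dim in normoxia, and DAN1 was dim on 1 of the 2 normoxia arrays. The control-culture differences of these genes rest in part on signals in the background, and the end-state difference of CYC1 wholly. YNL194C and CYC1 were tested only through the arrays of their 1 bright group, so the filter favoured a large value.

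In the control probe sets, which no comparison used, an 18S ribosomal RNA probe set read 3507 on hem1 without ALA array 1, 355 on hypoxia array 1 and 10736 on hypoxia array 2, above the 259 that was the highest value in the control cultures.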

How the results depend on the processing

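Calls were recomputed with quantile normalization, median centring, spike-in scaling, no filter, a filter at the 50th percentile, a floor at the 30th percentile, the 4 end-state arrays alone, no intensity trend, a mean over a gene's probe sets, and with arrays left out. All calls shared with another setting kept their direction. Of 156 called genes that the naming rule takes, 6 lost their call with quantile normalization, 22 with median centring, 28 with spike-in scaling, 20 without the trend, 74 without hypoxia array 1 and 91 without both arrays that read high for 18S. HEM15, CCP1, PAU23, CYT1, SDH2 and KAR4 lost theirs under this last setting alone. FAS2, a fatty acid synthase subunit, reversed with the mean of its probe sets (0.061, adjusted p = 0.889). Spike-in scaling moved the genes called in opposite directions to 59 and those not called between the control cultures to 238.

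Without both arrays that read high for 18S, 265 probe sets were called between the end states and 467 for the difference of the differences. By control-culture call these gave 63 genes in the same direction, 17 in the opposite and 79 not called; 1762 genes were alike, and 38 list members were called higher and 42 lower. A lone array per end state is then assumed to vary like the control cultures.

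Leaving out 1 array at a time gave 320 to 1121 probe sets called between the end states, 695 to 1514 between the control cultures and 533 to 1089 for the difference of the differences. The lowest end-state count came without hypoxia array 1. By control-culture call the genes numbered 80 to 161 in the same direction, 33 to 70 in the opposite and 113 to 538 not called. Genes of like end level numbered 2397 to 3493, list members called higher 51 to 133 and lower 67 to 123. No paired analysis was possible because the labels give no replicate numbers shared between groups. The planned search of promoters for motifs was not run, since no promoter sequences were used here. Dim genes are limited by background, and with 2 arrays per group a missed threshold does not show equal levels.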

Other observations

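Probe sets without a gene in the platform annotation ran against the genes. Of 1022 tested, 140 were called lower in hem1 without ALA than in hypoxia and 32 higher, with a median log2 difference of -0.14, while probe sets with 1 gene gave 261 lower and 533 higher with a median of 0.16. Between the control cultures the median of the probe sets without a gene was 0.32. Of 297 tested probe sets that match several genes, 63 were lower and 34 higher.

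Among smaller lists, 7 of 17 arginine and urea genes were called, 4 higher and 3 lower in hem1 without ALA, beside 9.18% higher and 4.49% lower over all genes. Those called higher were the breakdown and uptake genes CAR1 (1.70 on the log2 scale), CAR2 (1.13) and DUR3 (1.62) with CPA1 (0.86), and those called lower were the synthesis genes ARG1 (-1.05) and ARG4 (-1.19) with PUT2 (-0.82), of proline breakdown. In the list of multidrug and weak acid transport 4 of 23 were called higher and 3 lower, beside the same shares of all genes, among those lower the polyamine exporter TPO4 (-2.30) and the drug exporter QDR2 (-2.23). CPA1 is outside the naming rule, and all of these genes were chosen for printing after their values were seen.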
